A study of Mus musculus with 48 samples.

Results

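The mRNAs of the integrated stress response that are known for translational control were followed in mouse kidney over the day. The list of 8 genes was Atf4, Atf5, Ddit3, Ppp1r15a, Ppp1r15b, Ifrd1, Chac1 and Trib3, chosen by name for upstream open reading frames (uORFs) in their 5′ UTRs or for a place in the pathway that these mRNAs serve. All 8 were listed in the ribosome footprint (RPF-seq) data and 7 in the RNA-seq data, Trib3 being the exception, so that translation efficiency (TE) was obtained for 7 genes. These 7 belonged to the 11863 genes tested, out of 12423 listed in both assays.

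Kidneys came from male C57BL/6JRj mice, 11-12 weeks old, kept on 12 h of light and 12 h of dark, where Zeitgeber time ZT00 is lights-on and ZT12 lights-off. Tissue was taken at 12 timepoints spaced 2 h apart, with 2 replicate pools of 2 mice each, and every one of the 24 lysate pools gave 1 RNA-seq and 1 RPF-seq library. The paper states that the mice received isoflurane as an anaesthetic before sacrifice, and its part in the values was not tested. No other drug or stressor is described, so the groups differ in time of day and there is no stressed control. The replicates were separate pools of mice, and p-values measure the spread between pools.

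In the integrated stress response, kinases phosphorylate the initiation factor eIF2, the exchange factor eIF2B is blocked and most initiation falls. A few mRNAs whose main coding sequence sits behind uORFs are then translated better. For ATF4, the best known product of this switch, scanning ribosomes pass the inhibitory upstream start codons before they reacquire an initiator tRNA. ATF5 follows the same logic, DDIT3 (CHOP) also has uORFs in its mRNA, and PPP1R15A and PPP1R15B bring the phosphatase that reverses the switch.

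The upstream start codons carried by the measured mRNAs were read from the principal GENCODE vM21 transcript of each gene on GRCm38.p6. Atf4 had 3 upstream ATGs in a 5′ UTR of 594 nt, Ppp1r15a 3 in 283 nt, Ppp1r15b 3 in 604 nt, Atf5 2 in 373 nt, Ddit3 2 in 186 nt and Ifrd1 1 in 233 nt, whereas Chac1 (174 nt) and Trib3 (176 nt) had 0. In Atf4 and Atf5 the last uORF ran past the main start codon, over 59 codons in Atf4 and 58 codons in Atf5. The 4 windows below show the short uORF and the overlapping uORF of these 2 mRNAs, because this arrangement sets them apart from the other members. Capitals mark the upstream start codon and, where the whole uORF is shown, its stop codon.
Atf4 uORF 2: gccaccATGgcgtatTAG
Atf4 uORF 3: taagccATGgcgc
Atf5 uORF 1: cgcgcaATGgctctgTAG
Atf5 uORF 2: gccgccATGgagt
The short uORFs of Atf4 (chr15:80255576-80255593, plus strand) and Atf5 (chr7:44816526-44816543, minus strand) are each 3 codons long and start 196 nt and 252 nt before the main ATG. The overlapping uORFs start 97 nt (Atf4, chr15:80255675-80256208) and 121 nt (Atf5, chr7:44815281-44816412) before it, and both windows span an intron in the genome. All 4 start codons had a purine at the base 3 before the ATG and a G right after it, the context that favours initiation. Among the 10 other upstream ATGs of the members only the last one of Ppp1r15b had this context.

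The remaining uORFs ended before the main start codon. For Ddit3, Ppp1r15a, Ifrd1 and Ppp1r15b the upstream ATG closest to the main start codon is printed, because it is the last one met before the coding sequence.
Ddit3 uORF 2: ttgaagATGagcg
Ppp1r15a uORF 3: ggcgacATGaacc
Ifrd1 uORF 1: agaaacATGtatc
Ppp1r15b uORF 3: gccgggATGgacc
They lie at chr10:127290832-127290844 (plus strand, 31 codons), chr7:45526083-45526095 (minus strand, 26 codons), chr12:40223152-40223164 (minus strand, 52 codons) and chr1:133131511-133131523 (plus strand, 51 codons). Footprints on the uORFs themselves were not measured here, because the deposited values cover coding sequences.

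The deposited RPKM values scale with length and depth, and the reads behind each member were recovered from their steps. Atf4 rested on 834 to 2226 RNA-seq reads and 165 to 481 footprints per library, and Ppp1r15b on 787 to 2905 reads and 611 to 1451 footprints. Ifrd1 had 77 to 195 footprints per library, Ppp1r15a 10 to 83, Ddit3 11 to 55, Atf5 3 to 97, Trib3 2 to 37 and Chac1 0 to 29. The values of the last 5 genes therefore carry a large counting error in RPF-seq. Exact copies of 28-base windows of the coding sequences were found nowhere else in the genome for any of the 8 genes, but 388 of 1947 windows of Ppp1r15a (19.9%) occurred more than once within the gene itself, so reads from that stretch map to more than one position. The RPKM and TE of Ppp1r15a depend on how such reads were counted, and their part in its values was not tested.

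Across all libraries, relative depth ran from 0.60 to 2.04 of the median library in RNA-seq and from 0.70 to 1.58 in RPF-seq. It moved with the light cycle, with medians of 1.14 at ZT00 to ZT10 and 0.81 at ZT12 to ZT22 in RNA-seq, and of 1.18 and 0.91 in RPF-seq. The RPF-seq library of ZT04 replicate 2 stood apart, with 162 genes at 0 against at most 23 in any other RPF-seq library, and the main footprint and TE results are also given without it. All 14 kidney markers were present in RNA-seq, summing to 7164 to 8832 RPKM per library, against 250 to 479 RPKM for the 11 of 16 listed markers of immune, blood, fat, adrenal, liver and smooth muscle cells. Among these 11, Cd74 had a median of 200.7 RPKM. Hba-a1 (blood) ran from 24.6 to 180 RPKM and Adipoq (fat) from 0.128 to 3.98, while Ptprc (immune) stayed at 3.70 to 7.95. The part of such cells in the results was not tested. The 3 adrenal markers, Cyp11b1, Star and Cyp11a1, were not listed.

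RNA abundance of the members spanned a wide range. Over 24 libraries (lowest, median, highest) Atf4 RNA lay at 49.2, 75.9 and 106 RPKM, Ppp1r15b at 38.2, 43.1 and 51.8, Ifrd1 at 11.9, 15.5 and 17.7, Ddit3 at 5.64, 9.71 and 22.4, Ppp1r15a at 5.59, 7.70 and 10.4, Atf5 at 3.95, 5.97 and 8.15, and Chac1 at 0.218, 0.924 and 1.95. RPKM is a per-length scale, and in this order every neighbouring pair except Ppp1r15b with Ifrd1 and Atf5 with Chac1 overlapped in range.

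The order changed at the level of footprints. Ppp1r15b led with 15.0, 21.1 and 24.7 RPKM, ahead of Atf4 with 8.04, 12.3 and 23.5, although Atf4 mRNA was the more abundant. Ifrd1 followed with 3.08, 4.01 and 7.56, Ddit3 with 1.205, 1.77 and 5.32, Atf5 with 0.181, 1.65 and 3.69, Ppp1r15a with 0.261, 0.727 and 1.40, Chac1 with 0, 0.688 and 1.82, and Trib3 with 0.0974, 0.640 and 1.21 RPKM. Chac1 was at 0 footprints in 2 libraries, ZT04 replicate 2 and ZT10 replicate 2.

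**Figure D1:**
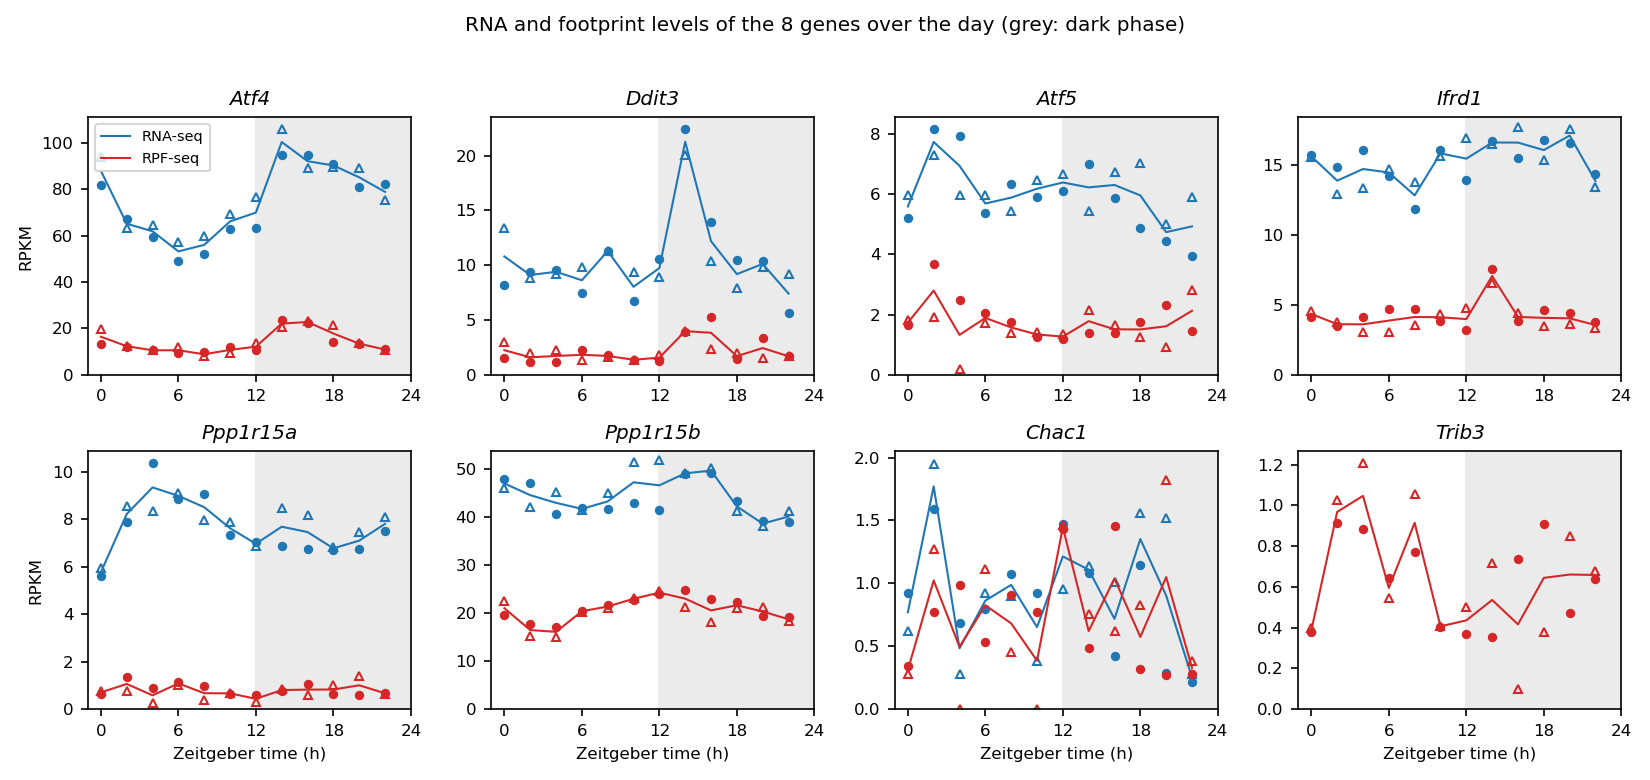
RPKM (y axis, linear, from 0) of the 8 genes against Zeitgeber time in hours (x axis), RNA-seq in blue and RPF-seq in red. Filled circles are replicate 1, open triangles replicate 2, lines join the means of the 2 replicates, and grey marks the dark phase. Atf4 was highest after lights-off in both assays, Ddit3 RNA peaked at ZT14 with 22.4 and 20.1 RPKM, and Trib3 has RPF-seq values only.

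TE, the RPF RPKM divided by the RNA RPKM of the same pool, was low for the mRNAs with upstream ATGs. Of the 7 genes with a TE, the 6 that carry upstream ATGs lay below the median gene in every one of the 24 pools. The median of the 7 fitted TE levels was -1.79 on the log2 scale, against 0.013 over all genes tested. In limma's test of the TE level, 6 of 7 members passed an FDR of 0.05 and at least 1.5-fold below the median gene, where 26.0% of all genes tested did, and 0 of 7 passed in the upward direction, where 20.6% did. RPKM of the 2 assays are normalised separately, so TE is read relative to other genes only.

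Ppp1r15a, the stress-induced regulatory subunit of the eIF2 phosphatase, had the lowest TE of the members, except with a pseudocount of 1, where Atf4 was lowest. Its ratio lay at 0.0313, 0.0943 and 0.188 (lowest, median and highest of 24 pools). The fitted level was -3.15 ± 0.10 (log2, SE, n = 24) against the median gene, an 8.85-fold lower TE and rank 57 from the lowest of 11863 genes. All 24 pools lay below the median gene, with 10 to 83 footprints behind each value.

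Atf4, the transcription factor at the centre of the response, came next. Its TE ratio lay at 0.133, 0.179 and 0.261. The fitted level was -2.38 ± 0.05, or 5.21-fold below the median gene, at rank 197 of 11863. All 24 pools lay below the median gene.

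Ddit3, which encodes the pro-apoptotic factor CHOP, had TE ratios of 0.122, 0.193 and 0.381 and a fitted level of -2.22 ± 0.08. Atf5, an ATF4 relative with the same uORF arrangement, had 0.0305, 0.270 and 0.520 and a level of -1.79 ± 0.13. Its lowest ratio came from ZT04 replicate 2, the library that stood apart, where Atf5 had 3 footprints, and without that pool its level was -1.67 ± 0.08. Ifrd1, a transcriptional coregulator whose mRNA carries a single uORF, had 0.208, 0.262 and 0.451 and a level of -1.78 ± 0.05.

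Ppp1r15b, the constitutive partner of the eIF2 phosphatase, lay closest to the median gene of the 6. It had TE ratios of 0.331, 0.481 and 0.578 and a level of -1.04 ± 0.04, a 2.05-fold lower TE than the median gene, below it in all 24 pools. Chac1, a glutathione-degrading enzyme without an annotated upstream ATG, had 0, 0.668 and 3.42 and a level of -0.37 ± 0.17 (adjusted p = 0.0431 in limma, under 1.5-fold), with 15 of 24 pools below the median gene. Without ZT04 replicate 2 the same 6 members were called low, with levels of -3.09, -2.38, -2.25, -1.67, -1.77 and -1.02 for Ppp1r15a, Atf4, Ddit3, Atf5, Ifrd1 and Ppp1r15b.

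**Figure D2:**
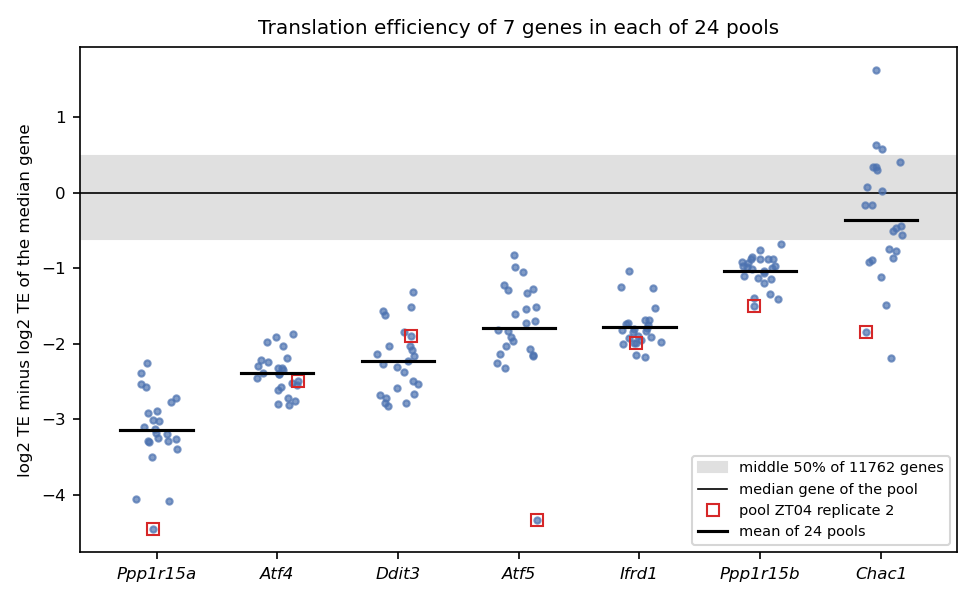
Log2 TE of 7 members minus the log2 TE of the median tested gene (y axis) in each of 24 pools (points), ordered by mean (black bars). The grey band holds the middle 50% of 11762 genes, and red squares mark the pool ZT04 replicate 2. The points of Ppp1r15a, Atf4, Ddit3, Atf5, Ifrd1 and Ppp1r15b all lie below 0, and those of Chac1 spread from -2.18 to 1.62.

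Neighbours in this order were compared within pools by a two-sided permutation test that reversed signs at random, with 6 pairs adjusted by Benjamini-Hochberg. Atf4 exceeded Ppp1r15a by 0.76 (log2, 95% interval 0.56 to 0.97, adjusted p = 3e-05 by permutation), higher in 22 of 24 pools, and Ppp1r15b exceeded Ifrd1 by 0.74 (0.61 to 0.88, adjusted p = 3e-05 by permutation) in 24 of 24. Before adjustment both were at 1e-05, the smallest p that 100000 resamples can give. Atf5 exceeded Ddit3 by 0.43 (0.10 to 0.77, adjusted permutation p = 0.0254) in 20 of 24 pools, and Chac1 exceeded Ppp1r15b by 0.67 (0.34 to 1.00, adjusted permutation p = 0.00114) in 20 of 24. Ddit3 and Atf4 differed by 0.16 (-0.02 to 0.34, adjusted permutation p = 0.126) and Ifrd1 and Atf5 by 0.01 (-0.26 to 0.29, adjusted permutation p = 0.933), which the spread over pools does not separate. The order of neighbours was taken from the same values.

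The order held in part under other settings. Ppp1r15b stayed above Ifrd1, and Atf4 above Ppp1r15a, with a pseudocount of 0.01 and without replicate 1, but the other 2 calls were then lost (adjusted permutation p = 0.0726 and 0.529 for Atf5 over Ddit3, and 0.315 and 0.0731 for Chac1 over Ppp1r15b). A pseudocount of 1 put Atf4 and Ppp1r15a at a difference of 0.08 (adjusted permutation p = 0.231). Atf5 and Ifrd1 changed places without ZT04 replicate 2, where they differed by 0.09 (adjusted permutation p = 0.399). Atf4 then exceeded Ppp1r15a by 0.71, Ifrd1 exceeded Ddit3 by 0.47, Ppp1r15b exceeded Atf5 by 0.67 and Chac1 exceeded Ppp1r15b by 0.71, with adjusted permutation p of 0.00012 to 0.00072.

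The low TE of the members was set beside that of other mRNAs with upstream ATGs. Over 11762 tested genes with an annotated transcript, 49.1% had at least 1 upstream ATG. The median TE level was 0.23 for 5988 genes with none, -0.10 for 2657 genes with 1, -0.35 for 1236 genes with 2, -0.46 for 747 genes with 3 and -0.61 for 1134 genes with 4 or more (log2, against the median gene). The share called low rose along the same classes, from 14.2% through 28.8%, 40.3% and 46.1% to 51.4%. The medians were 0.22, -0.09, -0.35, -0.47 and -0.61 without ZT04 replicate 2. These are descriptions over genes, which are not replicates, and other properties of the 5′ UTR were not tested.

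Most members were low even for their class. Of the 747 genes with 3 upstream ATGs, 5 had a lower TE than Ppp1r15a (0.669%) and 25 a lower TE than Atf4 (3.35%), but 215 a lower TE than Ppp1r15b (28.8%). Among the 1236 genes with 2, a lower TE was found in 44 for Ddit3 (3.56%) and in 92 for Atf5 (7.44%). Of the 2657 genes with 1, there were 123 below Ifrd1 (4.63%). Chac1 had 1261 of 5988 genes without upstream ATGs below it (21.1%). Ppp1r15b thus lay inside the middle range of its class and the other 5 uORF members lay near the lower end of theirs.

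**Figure D3:**
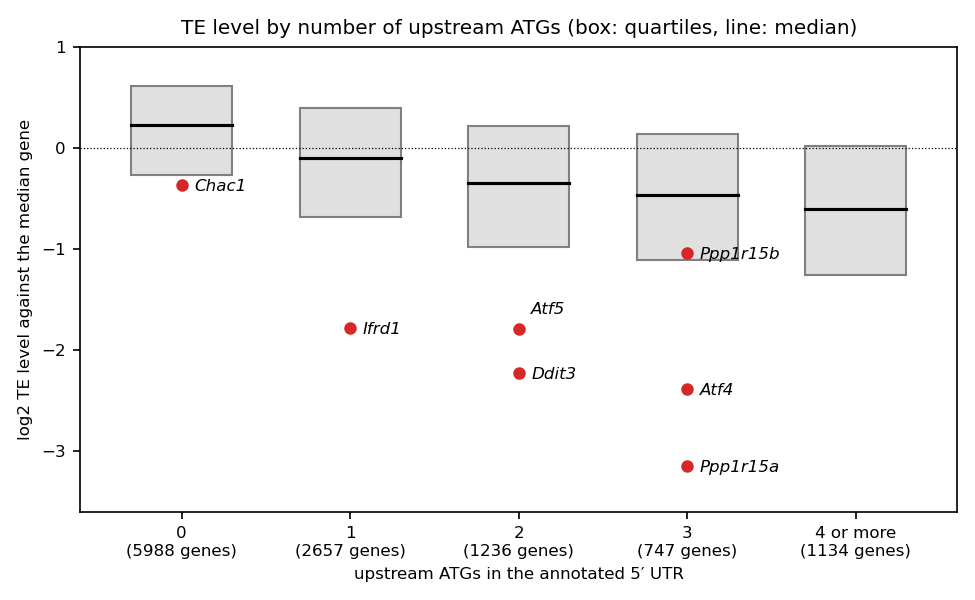
Fitted log2 TE level against the median gene (y axis) by number of upstream ATGs in the annotated 5′ UTR (x axis). Boxes span the quartiles of all tested genes in each class, black lines are medians (from 0.23 with none to -0.61 with 4 or more) and red points are the 7 members, of which only Ppp1r15b lies inside its box.

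Daily changes of the members were asked next, as a readout of whether the response varied over the day. Atf4 was the one member rhythmic in RNA abundance and the one member rhythmic in footprints, with both curves highest in the dark phase. A rhythm was called where the 24-h cosine and sine terms passed limma's F test at an FDR of 0.05 and the fitted curve changed at least 1.5-fold from trough to peak. By this rule 1 of 7 members passed in RNA-seq, where 10.2% of all genes tested did, and 1 of 7 in RPF-seq, where 7.58% did. In bulk tissue, a change in the number of cells of a type and a change in RNA per cell cannot be told apart.

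Atf4 RNA in the 2 replicates was 49.2 and 57.2 RPKM at ZT06, 52.0 and 59.9 at ZT08, 94.5 and 106 at ZT14 and 94.8 and 89.2 at ZT16. The 12 libraries from ZT02 to ZT12 lay at 49.2 to 76.4 RPKM and the 12 from ZT14 to ZT00 at 75.3 to 106, so that these stretches of the day barely overlapped. The fitted curve peaked at 18.05 h with a log2 peak-to-trough change of 0.74 ± 0.09 (SE, n = 24, adjusted p = 1.394e-06 in limma), or 1.67-fold.

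Atf4 footprints followed a sharper course. They stood at 9.67 and 8.04 RPKM at ZT08 and 10.6 and 13.6 at ZT12, and then at 23.5 and 20.6 at ZT14 and 22.3 and 23.3 at ZT16. At ZT18 the replicates parted (14.3 and 21.3), as they did at ZT00 (13.1 and 19.7), and by ZT22 they were back at 11.0 and 10.8. The 4 libraries of ZT14 and ZT16 lay above 19 of the other 20, the exception being ZT18 replicate 2. The fitted change was 0.89 ± 0.18 (log2, SE, n = 24, adjusted p = 0.00182 in limma), or 1.86-fold, with a peak at 17.2 h. Without ZT04 replicate 2 it was 0.91 ± 0.19 (adjusted p = 0.00261 in limma). With replicate 1 left out the change was 0.97 but the call was lost (adjusted p = 0.107 in limma, on 12 libraries).

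The highest timepoint mean of Atf4 exceeded the lowest by 1.89-fold in RNA, 2.57-fold in footprints and 1.79-fold in TE. The TE means ran from 0.139 at ZT22 to 0.248 at ZT16, where the pools held 0.235 and 0.261, while ZT14 held 0.249 and 0.195. A 24-h curve on TE gave 0.23 ± 0.15 (log2, SE, n = 24, adjusted p = 0.493 in limma). Of the 7 members 0 passed the TE rhythm test in limma, where 3.74% of all genes tested did. At an unadjusted p under 0.05 with no fold limit, 0 of 7 members passed in TE, where 34.0% of all genes tested did. With a 12-h term added to the curve, Atf4 passed with 0.64 (adjusted p = 0.0481 in limma, 5.19% of all genes called). Ppp1r15b reached the same FDR with 0.48 (adjusted p = 0.0480 in limma), under 1.5-fold. With the 12 timepoints as separate levels the adjusted p of Atf4 TE was 0.267.

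**Figure D4:**
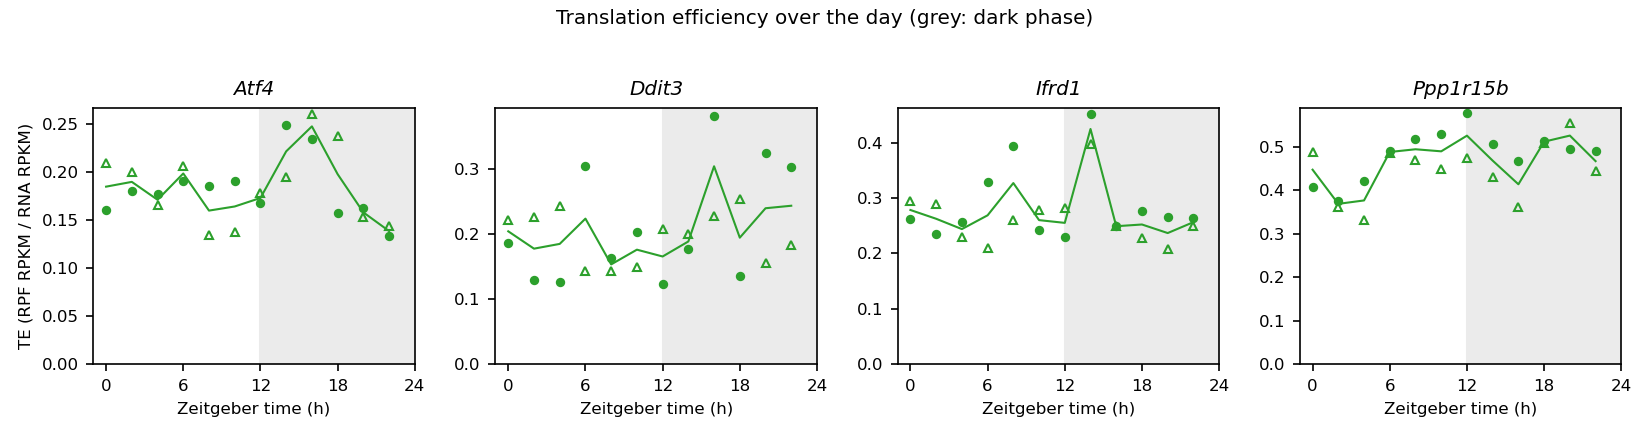
TE (RPF RPKM over RNA RPKM, y axis from 0) of Atf4, Ddit3, Ifrd1 and Ppp1r15b against Zeitgeber time in hours, with filled circles for replicate 1, open triangles for replicate 2, lines for their mean and grey for the dark phase. Atf4 was highest at ZT16 (0.235 and 0.261) and Ifrd1 at ZT14 (0.451 and 0.399).

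Ddit3 had a single sharp RNA maximum. Both ZT14 libraries, at 22.4 and 20.1 RPKM, lay above the other 22, of which the highest had 13.98. The 24-h curve gave a change of 0.51 ± 0.21 (log2, SE, n = 24) with a peak at 14.1 h and did not pass (adjusted p = 0.120 in limma). With timepoints as separate levels, Ddit3 RNA passed with a range of 1.55 on the log2 scale (adjusted p = 0.00846 in limma), where 19.3% of all genes tested passed. Its footprints were highest at ZT14 (3.95 and 4.02 RPKM) and ZT16 (5.32 and 2.36), and the fitted change was 0.71 ± 0.28 (adjusted p = 0.134 in limma), or 0.81 ± 0.29 (adjusted p = 0.0900) without ZT04 replicate 2. TE of Ddit3 had its highest timepoint mean at ZT16 (0.381 and 0.227), and its 24-h curve gave 0.43 ± 0.24 (adjusted p = 0.3725 in limma). At ZT14 its TE was 0.176 and 0.200, close to its median of 0.193.

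Ifrd1 showed the converse at the same time of day. Its RNA at ZT14, 16.7 and 16.5 RPKM, was within the range of other timepoints, but its footprints, 7.56 and 6.59 RPKM, lay above the other 22 libraries, of which the highest had 4.78. Its TE values at ZT14, 0.451 and 0.399, were the 2 highest of the 24 pools, followed by 0.394 at ZT08 replicate 1. Over timepoints as separate levels this did not pass for footprints (0.97 on the log2 scale, adjusted p = 0.137 in limma, with 9.54% of all genes called) or for TE (0.84, adjusted p = 0.273, with 0.826% called). The 24-h curves gave 0.25 ± 0.07 in RNA (adjusted p = 0.0238, under 1.5-fold) and 0.38 ± 0.16 in footprints (adjusted p = 0.149 in limma). The ZT14 values were singled out after the profiles were seen.

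Ppp1r15b footprints changed by less than the 1.5-fold limit. They were lowest at ZT02 (17.6 and 15.3 RPKM) and ZT04 (17.2 and 15.0) and highest at ZT12 (23.9 and 24.6), and those 4 early libraries lay below the other 20. The 24-h curve gave 0.39 ± 0.08 (log2, SE, n = 24, adjusted p = 0.00292 in limma), or 1.31-fold with a peak at 13.4 h, and did not reach the FDR without replicate 1 (0.34, adjusted p = 0.349). An FDR of 0.05 alone was reached by 30.9% of all genes. Without ZT04 replicate 2 the change was 0.35 ± 0.08 (adjusted p = 0.00452 in limma). Its RNA curve was flatter, 0.16 ± 0.07 (adjusted p = 0.155).

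Ppp1r15a RNA peaked in the light phase, opposite to Atf4. It was lowest at ZT00 with 5.59 and 5.95 RPKM and highest at ZT04 with 10.4 and 8.33, then ZT06 with 8.86 and 9.11. The fitted change was 0.31 ± 0.10 (log2, SE, n = 24, adjusted p = 0.0355 in limma) with a peak at 6.49 h, under 1.5-fold, and 0.18 (adjusted p = 0.641) without replicate 1. An FDR of 0.05 alone was reached in RNA by 3 of 7 members (Atf4, Ppp1r15a and Ifrd1) and by 48.6% of all genes. With timepoints as separate levels the range was 0.68 (adjusted p = 0.0235 in limma). Under quantile normalisation the 24-h curve gave 0.23 with an adjusted p of 0.132. Footprints of Ppp1r15a, on 10 to 83 reads, gave 0.33 ± 0.29 (adjusted p = 0.641).

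Atf5, Chac1 and Trib3 gave no rhythm call at the depth available. Atf5 RNA had a change of 0.24 ± 0.13 (log2, SE, adjusted p = 0.271 in limma) and its footprints 0.33 ± 0.37, or 0.62 ± 0.22 (adjusted p = 0.0737) without ZT04 replicate 2. Chac1 had 0.47 ± 0.42 in RNA and 0.66 ± 0.60 in footprints, with 2 to 33 RNA-seq reads per library. Without ZT04 replicate 2 the footprint changes of Chac1, Ifrd1 and Ppp1r15a were 0.33 ± 0.53, 0.34 ± 0.16 and 0.42 ± 0.26, none past the FDR (adjusted p = 0.876, 0.229 and 0.412 in limma). In TE 0 of 7 members were then called, where 404 of 11863 genes tested were. Trib3, a pseudokinase that restrains the response, was fitted over the 12026 genes of the RPF-seq data, of which 7.69% were called. Its footprints averaged 0.386 RPKM at ZT00 and 1.05 at ZT04, and the curve gave 0.80 ± 0.31 (adjusted p = 0.128 in limma) with a peak at 3.21 h, or 0.69 ± 0.32 (adjusted p = 0.221) without ZT04 replicate 2.

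Since ATF4 activates transcription of several members, Atf4 footprints were set against member RNA in the same pools. The 24 pools were split into clusters at the largest gap in log2 Atf4 footprints, 18 at 8.04 to 14.3 RPKM and 6 at 19.7 to 23.5 RPKM. The 6 were both pools of ZT14 and ZT16 and replicate 2 of ZT18 and ZT00. A largest gap always gives such a split, and whether the clusters are distinct was not tested. Relations were computed within clusters, for 6 genes in each, on log2(RPKM + 0.1). In the 18 pools, Ifrd1 RNA went with Atf4 footprints (r = 0.60, permutation p = 0.00895, adjusted 0.0537, with rho = 0.64, permutation p = 0.00544, adjusted 0.0198), and r was 0.57 without the 2 pools farthest from the median. Ppp1r15a RNA went the other way (r = -0.53, permutation p = 0.0230, adjusted 0.0691, with rho = -0.63, permutation p = 0.00659, adjusted 0.0198), and r was -0.57 without those 2 pools. Without ZT04 replicate 2, on 17 pools, r was 0.59 for Ifrd1 and -0.53 for Ppp1r15a (permutation p = 0.0125 and 0.0290, adjusted 0.0751 and 0.0870). In these 17 pools rho was 0.66 for Ifrd1 and -0.63 for Ppp1r15a (adjusted permutation p = 0.0239 for each).

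Ddit3 RNA, Ppp1r15b RNA and Atf5 RNA gave r of -0.08, -0.04 and -0.13 in the same 18 pools (adjusted p = 0.865 for each by permutation), and Chac1 RNA gave 0.24 (adjusted p = 0.653 by permutation). In the 6 pools with high Atf4 footprints, r ran from 0.10 for Ddit3 to 0.60 for Ifrd1, and the lowest adjusted p was 0.625 in the exact permutation test over 6 genes. The high Ddit3 RNA of ZT14 came in 2 of these 6 pools, while the pools of ZT16 held 13.98 and 10.4 RPKM at the same Atf4 footprint level. Over all 24 pools together the relation passed for Ddit3 and Ifrd1, but no pooled coefficient is given because it spans the gap between the clusters.

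Time of day varied over these pools, and the relations were also computed after the 24-h curve was taken out of both measures, on the residuals of all 24 pools. Ifrd1 then gave r = 0.27 (adjusted permutation p = 0.239) and Ppp1r15a -0.08 (adjusted permutation p = 0.697), so that neither passed. Atf5, Ddit3 and Ppp1r15b did, with r of 0.53, 0.52 and 0.50 (adjusted permutation p = 0.0251, 0.0251 and 0.0270). Their rho values of 0.51, 0.46 and 0.47 had an adjusted permutation p of 0.0523 each. Without the 2 pools with the farthest Atf4 residuals, ZT14 replicate 1 and ZT00 replicate 2, r was 0.53 for Atf5, 0.44 for Ppp1r15b and 0.30 for Ddit3 (permutation p = 0.175), so that the relation of Ddit3 rests on those pools. A 24-h curve does not take out sharper changes over the day, such as the ZT14 maximum of Ddit3 RNA. Atf4 footprints changed by 0.89 under that curve and by 1.33 with a 12-h term added (log2). The residuals can therefore still hold time of day, and how far they do was not tested. Relative depth also varied, and its part in the relations was not tested.

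**Figure D5:**
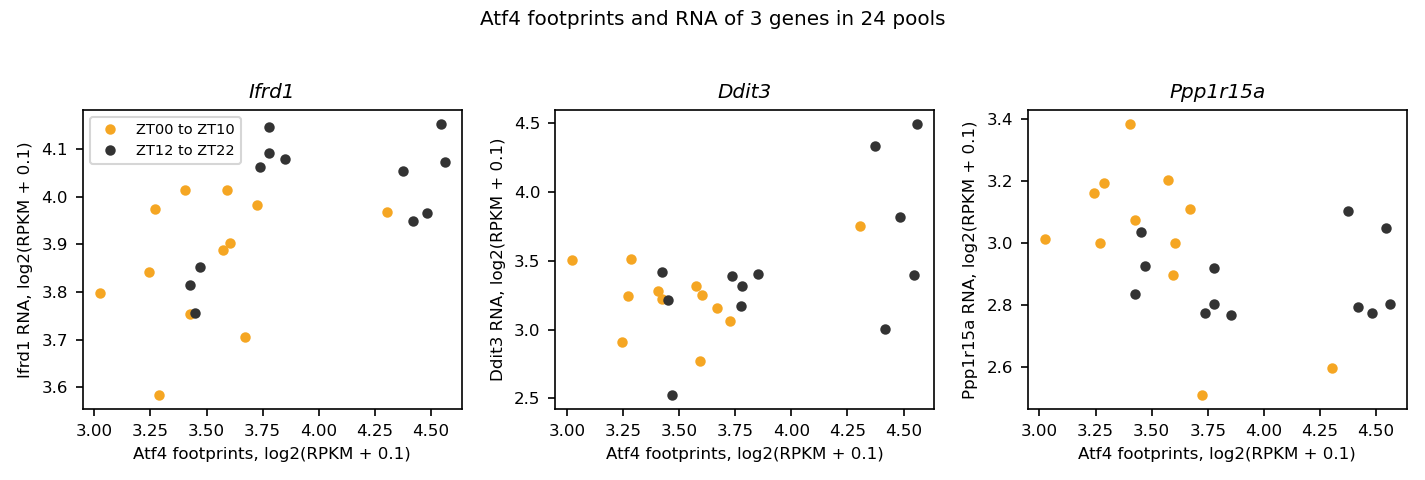
RNA of Ifrd1, Ddit3 and Ppp1r15a (y axes) against Atf4 footprints (x axis), all as log2(RPKM + 0.1), 1 point per pool for 24 pools, orange for ZT00 to ZT10 and black for ZT12 to ZT22. The 6 pools at the right lie apart from the other 18, and the 2 highest Ddit3 points are the pools of ZT14.

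The promoters of the members were searched for TGATGNAAN, a general form of the C/EBP-ATF response element bound by ATF4, on both strands of the RefSeq window from 250 bases before to 50 after each start (GRCm38.p6). Of the 7 members with a window, all but Ppp1r15b, 2 held a match, Chac1 and Trib3, against 3.95% of 32851 windows of 300 bases. Both sites are shown because these 2 members lack upstream ATGs. Capitals mark the motif, read on the strand opposite to the gene.
Chac1 promoter: caggagTGATGCAACggcagg
Trib3 promoter: cccggcTGATGTAAAcctgag
They lie at chr2:119351042-119351062 and chr2:152344033-152344053. Such a match is a description of the sequence and not evidence of binding.

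The genes listed for the eIF2 kinases and for the subunits of eIF2 and eIF2B gave no rhythm call. The 4 eIF2 kinases (Eif2ak1 to Eif2ak4), the 4 genes listed for eIF2 subunits and the 5 for eIF2B subunits were all tested. By limma 0 of these 13 were called rhythmic in RNA, footprints or TE, where 10.2%, 7.58% and 3.74% of all genes tested were. At an unadjusted p under 0.05 and with no fold limit, 2 of 4 kinases, 3 of 4 eIF2 genes and 1 of 5 eIF2B genes were found in RNA, 1, 4 and 2 in footprints, and 1, 1 and 0 in TE. The same limit was passed by 56.3% of all genes in RNA, 42.6% in footprints and 34.0% in TE. In TE level, the amino-acid sensing kinase Eif2ak4 (GCN2) at -1.30 ± 0.04 and the endoplasmic reticulum kinase Eif2ak3 (PERK) at -1.09 ± 0.02 were called low. The eIF2 subunit genes Eif2s1 (0.79 ± 0.03) and Eif2s2 (0.69 ± 0.05) were called high. Among eIF2B subunits, Eif2b5 was called low (-0.66 ± 0.03) and Eif2b2 (0.96 ± 0.03) and Eif2b3 (0.60 ± 0.03) were called high. All of these level calls were also made without ZT04 replicate 2. The level test called 26.0% of all genes tested low and 20.6% high.

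Of 30 listed target genes of ATF4 or CHOP outside the members, 26 were tested. In RNA 2 were called, in footprints 3 and in TE 1, where 10.2%, 7.58% and 3.74% of all genes tested were. Herpud1, which acts in endoplasmic reticulum protein degradation, ran from 131.5 RPKM (median 195.7) to 329.5 in RNA and changed by 0.93 ± 0.09 (log2, adjusted p = 1.443e-07 in limma) with a peak at 13.9 h. Its footprints changed by 0.79 ± 0.08 (adjusted p = 2.223e-07), peaking at 13.5 h. Mthfd2, of mitochondrial folate metabolism, changed by 0.67 ± 0.18 in RNA (adjusted p = 0.0118) between 1.53 and 5.51 RPKM. In footprints the amino acid transporter Slc38a2 changed by 0.73 ± 0.13 (adjusted p = 4.067e-04) with a peak at 18.1 h, and Ddit4, an inhibitor of mTORC1, by 0.60 ± 0.17 (adjusted p = 0.0231) with a peak at 17.1 h.

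Ddit4 also passed in TE, by 0.82 ± 0.14 (log2, adjusted p = 0.00213 in limma) with a peak at 19.2 h, and by 0.80 ± 0.14 (adjusted p = 0.00390) without ZT04 replicate 2. Without that library its footprint change, 0.55 ± 0.17, fell below 1.5-fold. Of the 26 genes 3 were then called in footprints, with Gdf15 (0.63 ± 0.19, adjusted p = 0.0387 in limma) in place of Ddit4. In TE 2 were called, Ddit4 and Jdp2. Without that library, 909 of 11863 genes tested were called in footprints and 404 in TE. Herpud1 and Slc38a2 were called in footprints there too, at 0.81 ± 0.08 and 0.77 ± 0.13. The median TE level of these 26 genes was 0.40, against -1.79 for the members. In TE level 6 were called high, led by Slc3a2 (1.28 ± 0.02) and Shmt2 (1.08 ± 0.03), and 2 low, Jdp2 (-0.95 ± 0.09) and Xpot (-0.87 ± 0.03). Of all genes tested, 20.6% were called high and 26.0% low.

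All 6 other mRNAs listed for regulatory uORFs under stress were tested, with a median TE level of -0.56. In TE level 3 of these 6 were called low, where 26.0% of all genes tested were. Among them were Slc35a4 at -4.23 ± 0.07 and Ibtk at -1.95 ± 0.04, so that Slc35a4 stood below every member. Slc35a4 had 16.8 to 37.6 RPKM of RNA but 0.686 to 2.88 RPKM of footprints on its coding sequence. Only Uchl1, a neuronal ubiquitin hydrolase, was called high (0.93 ± 0.05), where 20.6% of all genes tested were. In the daily tests 1 was called in RNA, 2 in footprints and 1 in TE, where 10.2%, 7.58% and 3.74% of all genes tested were. Uchl1 passed in RNA (0.87 ± 0.17, adjusted p = 7.599e-04 in limma) and footprints (0.87 ± 0.10, adjusted p = 1.316e-06). Slc35a4 passed in footprints (0.71 ± 0.21, adjusted p = 0.0335) and in TE (0.70 ± 0.20, adjusted p = 0.0450), but not in TE without ZT04 replicate 2 (0.70 ± 0.20, adjusted p = 0.0506). The footprint calls of Uchl1 (0.89 ± 0.09) and Slc35a4 (0.68 ± 0.21) were also made without that library.

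Immediate early genes, which are induced quickly by many signals and by handling of tissue, were listed beside the members. Of 10 listed, 8 were tested, and 3 were called in RNA, Ier3 (1.48 ± 0.18, adjusted p = 2.611e-06 in limma, peak at 15.1 h), Junb (0.82 ± 0.16, adjusted p = 7.991e-04, peak at 9.05 h) and Dusp1 (0.69 ± 0.21, adjusted p = 0.0251, peak at 10.8 h). The same rule called 10.2% of all genes tested in RNA, 7.58% in footprints and 3.74% in TE. In footprints Ier3 (1.15 ± 0.23, adjusted p = 0.00164) and Junb (0.78 ± 0.19, adjusted p = 0.00806) were called, and Junb was called in TE (0.62 ± 0.13, adjusted p = 0.00783). These calls were also made without ZT04 replicate 2, with footprint changes of 1.26 ± 0.23 for Ier3 and 0.81 ± 0.20 for Junb and a TE change of 0.63 ± 0.14 for Junb. In TE level 4 were called high, led by Egr1 (1.02 ± 0.13) and Ier3 (0.99 ± 0.05), and 0 low, where 20.6% and 26.0% of all genes tested were.

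The genes most like Atf4 in TE over the 24 pools, by Pearson's r of log2 TE among all genes tested, were Zdhhc6 (0.82), Exoc3 (0.73) and Armh4 (0.70). Those most like Ppp1r15a in RNA were Klf11 (0.82), Mafk (0.81) and Zswim4 (0.78). These coefficients are the extremes of 11863 genes and are given as a description.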

How the data were processed

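The authors trimmed reads, mapped them to GRCm38 (Bowtie2 2.2.1, TopHat2 2.0.11 and Cufflinks 2.2.1 in the submitters' processing notes), counted reads on coding sequences and normalised libraries by upper quantiles with edgeR. They deposited 1 RPKM value per gene and library, so that total read counts per library were not used here. Member reads were recovered as whole multiples of the smallest step of a library (tolerance 0.1, all member values). They state depth only and entered no test. A count of 0 reads covers counting error only.

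The test set held genes whose median RPKM reached 0.5 or more in each assay (12849 of 12927 gene IDs had a symbol). Values were taken as log2(RPKM + 0.1), which understates changes of low genes. Rhythms and TE levels were fitted with limma 3.58.1 (R 4.3.3, lmFit and eBayes with trend) on 24-h cosine and sine terms, where TE is paired within a pool and the TE level is the intercept against the pool's median gene, with Benjamini-Hochberg adjustment over all genes tested. Permutation tests used 100000 resamples (Python 3.11.15, numpy 2.4.6, scipy 1.17.1). Intervals of TE differences are normal intervals from the SD over pools. The rhythm test was tested on simulated data.

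The text names all 8 members, the most changed called genes of each list (up to 3 per rhythm test, up to 2 low and 2 high in TE level) and the 3 genes most like Atf4 TE and Ppp1r15a RNA. The members and lists were chosen with earlier results of these data known, and lists are described by counts with no set test. Upstream ATGs were counted in the annotated 5′ UTR of 1 principal transcript per gene (GENCODE vM21), which may differ from the kidney transcript. Alternatives were pseudocounts of 1 and 0.01, a minimum RPKM of 2 or none, quantile normalisation, an FDR of 0.01, a replicate block, each replicate left out, an added 12-h term, timepoints as separate levels, AIC choice and no fold limit. After seeing the data, the fit without RPF-seq ZT04 replicate 2, the fit of Trib3 and the grouping of pools by Atf4 footprints were added. Protein sequences were not used here.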

Additional observations from a re-analysis of the deposited data

How the results depend on the processing

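Atf4 RNA was called rhythmic in every fit made, with a log2 change of 0.66 to 0.92. Members called in RNA were 1, and 3 both with timepoints as separate levels (Atf4, Ddit3, Ppp1r15a) and with no fold limit (Atf4, Ppp1r15a, Ifrd1). Members called in footprints were 1, and 2 with timepoints as separate levels (Atf4, Ppp1r15b), with AIC choice (Atf4, Ddit3) and with no fold limit (Atf4, Ppp1r15b). With a replicate left out the count in footprints was 0 (without replicate 1) to 1. Members called in TE were 0, and 1 with the 12-h term (Atf4). Members with a low TE were 6, and 3 with a minimum RPKM of 2, which leaves 3 members to test. A pseudocount of 0.01 added Chac1 (-0.65). Neighbour pairs that differed in TE were 4 of 6, 5 with a pseudocount of 1, 2 with a pseudocount of 0.01 and 2 (without replicate 1) to 4 with a replicate left out, the pairs themselves changing with the order. The relation of Atf4 footprints to member RNA, computed over all 24 pools in spite of their clusters, passed for 2 of 6 genes (Ddit3, Ifrd1), for 2 by rho (Ifrd1, Ppp1r15a), for 3 on residuals of the 24-h curve (Atf5, Ddit3, Ppp1r15b), and for 0 (without replicate 1) to 2 with a replicate left out.

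Over all genes, calls in RNA, footprints and TE were 1210, 899 and 444. They were 781, 590 and 321 with a pseudocount of 1, 1069, 703 and 215 at an FDR of 0.01, 2291, 1132 and 98 with timepoints as separate levels, 1289, 1075 and 727 with AIC choice, 5761, 3663 and 2028 with no fold limit, 722, 370 and 0 without replicate 1, and 1430, 853 and 2 without replicate 2. The cause was not tested. Replicate numbers did not pair libraries across timepoints (mean correlation of deviations 0.0291 in RNA-seq and 0.0197 in RPF-seq). With a replicate block the calls were 1214, 895 and 455, and member calls were 1, 1 and 0, with 6 low in TE. Depth limits the TE of Chac1, Atf5, Ddit3 and Ppp1r15a most.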
